A study of Mus musculus with 15 samples.

Results

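The tip cell genes described here are Esm1, Apln, Aplnr, Kcne3, Ramp3 and Trp53i11, which 7 probe sets measured, out of 18194 genes and 34958 probe sets that carry exactly 1 gene symbol. The members were chosen by their signal in the mutants relative to wild type, known from an earlier look at the same arrays, so their levels against wild type are a description and carry no test. Endothelial cells were pulled from adult retina with beads coated in an antibody to PECAM, an adhesion protein of all endothelium, and each of 15 Affymetrix arrays held RNA from a pool of 5 to 10 mice. There were 3 pools of Fz4-/- mice, which lack the receptor Frizzled4, 3 of Lrp5-/- mice, which lack the coreceptor Lrp5, 3 of Norrin KO mice, which lack the secreted ligand, and 6 of wild type mice. All were on a mixed C57Bl6/129 background and labelled as mixed gender, and the deletions were not described as restricted to a cell type. Signals are log2 values made with RMA, in which 1 unit is a doubling, and how precise any difference can be is set by how many arrays there are.

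Tip cells are the leading endothelial cells of a growing vessel sprout. They form where VEGF-A acts on its receptor Kdr, and they hold their neighbours in the stalk state through the ligand Dll4 and Notch. Norrin, secreted by Müller glia, binds Frizzled4 and Lrp5 on the endothelium and acts through beta-catenin to build the vessels of the retina and their barrier. In a healthy adult retina the vessels have stopped sprouting, and tip cell genes are a mark of the developing retina.

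Earlier work on these arrays set Lrp5-/- 1, Lrp5-/- 3 and wild type 4 apart from the rest. Without them the mean of the mutants stood above wild type by 6.87 in Esm1, 5.00 in Apln, 1.96 in Aplnr, 5.37 in Kcne3, 3.77 in Ramp3 and 2.20 in Trp53i11, each within 1 SD of the value with all arrays.

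The promoter letters of Esm1 and Apln are shown because both genes were lowest on the array scale in wild type and high in all mutants. Promoters came from RefSeq on the GRCm38.p6 build, and 5 of the 6 members had an entry, the exception being Aplnr. The 250 bases before each start were searched on both strands for 6 short strings. The string CTTTGA is 1 form of the core bound by TCF/LEF, the factors that work with beta-catenin, and other forms were not searched. The hypoxia response is known by the core ACGTG, and ETS factors, common in endothelium, by the core CCGGAA. The AP-1 factors are known by the string TGANTCA, and the TEAD factors by the string GGAATG. The last string was TATAAA, the usual form of the TATA box. Capitals mark the matches. The Esm1 window lies at chr13:113209409-113209658 on the plus strand and the Apln window at chrX:48034854-48035103 on the minus strand, both written 5′ to 3′ and both ending at the base before the annotated start of the gene.
Esm1: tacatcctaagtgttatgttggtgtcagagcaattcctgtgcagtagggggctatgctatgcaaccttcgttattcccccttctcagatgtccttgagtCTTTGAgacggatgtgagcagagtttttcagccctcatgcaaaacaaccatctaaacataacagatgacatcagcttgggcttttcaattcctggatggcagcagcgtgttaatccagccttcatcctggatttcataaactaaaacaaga
Apln: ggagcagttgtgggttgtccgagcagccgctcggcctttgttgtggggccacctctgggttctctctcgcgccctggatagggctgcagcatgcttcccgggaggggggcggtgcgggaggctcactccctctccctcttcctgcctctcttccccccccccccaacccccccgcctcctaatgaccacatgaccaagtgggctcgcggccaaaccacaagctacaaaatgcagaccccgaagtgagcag
Esm1 held 1 CTTTGA, 151 to 146 bases before the start, a string found in 13.8% of 32851 promoters. The Apln window held none of the 6 strings and had a GC content of 65.2%, against 44.0% for Esm1. Of the others, 1 of 2 Kcne3 windows held 1 ACGTG (found in 16.6% of promoters) and 1 TGANTCA (6.7%). Ramp3 held 1 CCGGAA (12.0%) and 1 GGAATG (12.6%). Trp53i11 and the other Kcne3 window held none, and TATAAA (12.4%) was in no member's window. The windows of Kcne3, Ramp3 and Trp53i11 did not end at the base before the annotated start of the gene. No string was found in more than 1 member, and a match is a description of the letters, not evidence of binding.

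The secreted members come first. Esm1 encodes endocan, a proteoglycan that VEGF induces in endothelium. Its signal was 11.39, 11.87 and 11.52 on the Fz4-/- arrays, 11.71, 11.51 and 11.58 on the Lrp5-/- arrays and 11.12, 11.15 and 11.40 on the Norrin KO arrays, against a lowest of 3.31, a median of 4.81 and a highest of 5.46 on the wild type arrays. The 9 mutant arrays lay within less than 1 unit of each other, and the groups did not come near to overlapping. Averages were 11.60 ± 0.25 in Fz4-/-, 11.60 ± 0.10 in Lrp5-/- and 11.23 ± 0.15 in Norrin KO (SD, n = 3 each), against 4.65 ± 0.74 in wild type (SD, n = 6). The mean of the mutants stood 6.82 ± 0.25 (SE) above wild type, the largest difference of the 6 members. All 6 wild type signals lay under the medians of their arrays, which ran from 5.88 to 6.04, so the floor of the array limits how large this difference can be. In pooled tissue cells, more cells that express a gene and more RNA per cell cannot be told apart.

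Apln encodes apelin, a peptide released by tip cells that acts on neighbouring endothelium. Its signal was 8.91, 9.51 and 8.83 in Fz4-/-, 8.54, 9.17 and 9.04 in Lrp5-/- and 8.62, 8.65 and 9.43 in Norrin KO, against 3.24 (lowest), 3.89 (median) and 5.48 (highest) in wild type. Every mutant array was above every wild type array, and the means of the 3 mutants, 9.09 ± 0.37, 8.92 ± 0.33 and 8.90 ± 0.46 (SD, n = 3 each), were close. The mean of the mutants exceeded wild type by 4.95 ± 0.28 (SE). On 5 of 6 wild type arrays Apln was under the lower quartile of all probe sets, 3.90 to 4.29, and the exception was wild type 2 at 5.48. Apln is X-linked, and signals of Xist, the RNA that silences an X chromosome in female cells, were 11.42 to 11.88 in Fz4-/- and 4.12 to 4.98 in Norrin KO, so the sex of the pools moved with these groups. With Xist and the Y-linked Eif2s3y as covariates the difference of Norrin KO from wild type in Apln was 5.18, against 4.88 without them.

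**Figure D1:**
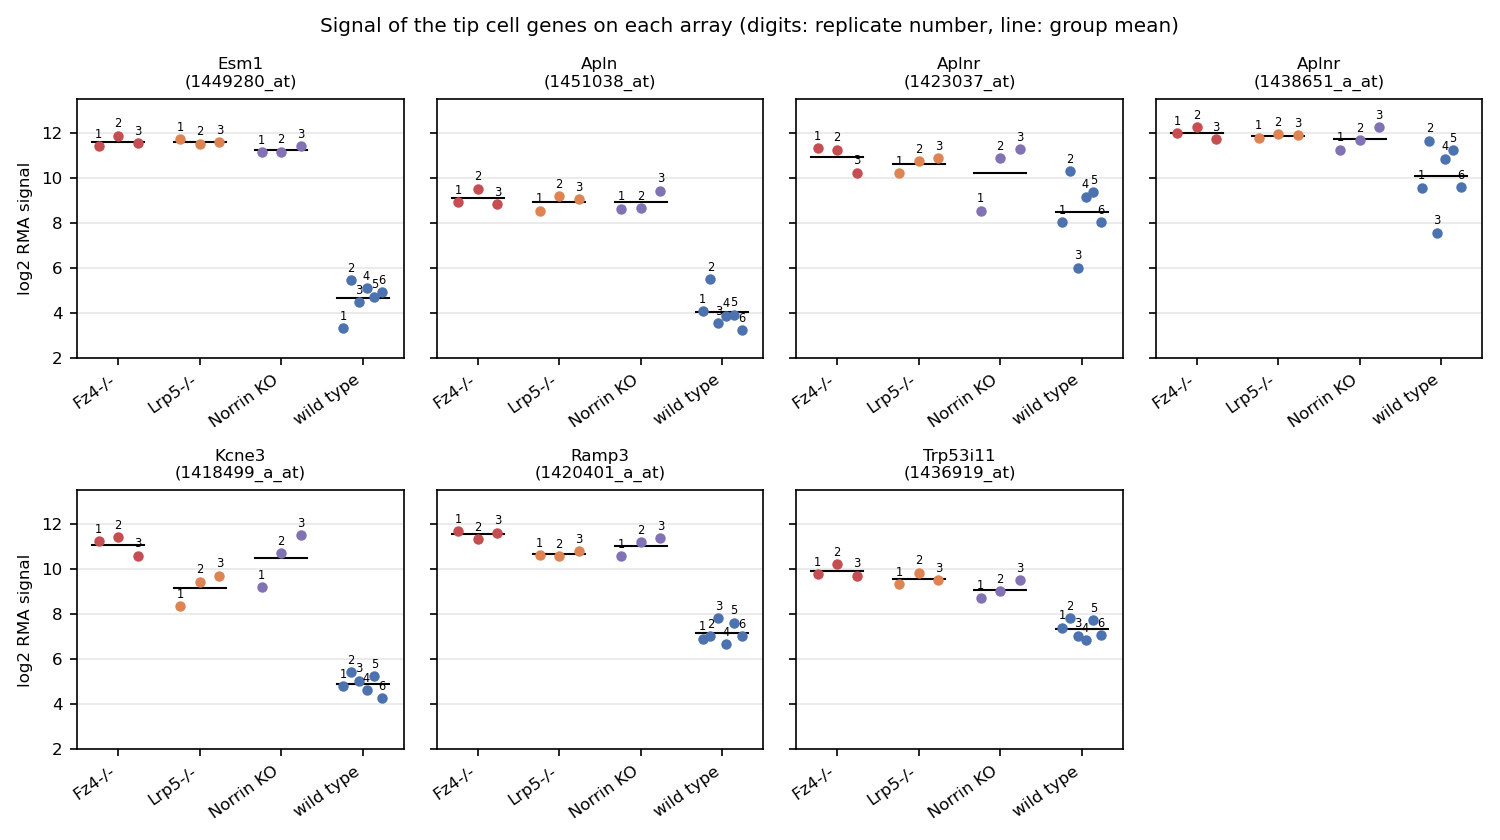
Log2 RMA signal (vertical axis) of the 7 probe sets on each of the 15 arrays, grouped by genotype, with a dot and a replicate number per array and a line at each group mean. Esm1, Apln, Kcne3, Ramp3 and Trp53i11 have all 9 mutant arrays above all 6 wild type arrays, while the wild type dots of Aplnr spread widely, from 7.56 to 11.64 on the brighter probe set, and reach the mutants.

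Aplnr, the G protein-coupled receptor that apelin activates, behaved differently from its ligand. It is known from veins and growing vessels, where it is found in stalk cells more than in tip cells. On the brighter of its 2 probe sets (1438651_a_at) the signal was 11.98, 12.23 and 11.71 in Fz4-/-, 11.78, 11.92 and 11.88 in Lrp5-/- and 11.25, 11.67 and 12.24 in Norrin KO, against 7.56 (lowest), 10.22 (median) and 11.64 (highest) in wild type. The mutants were high and close together, and wild type ran from far below them to within their range: Norrin KO 1 at 11.25 lay below wild type 2 at 11.64. Means were 11.97 ± 0.26, 11.86 ± 0.07 and 11.72 ± 0.50 in Fz4-/-, Lrp5-/- and Norrin KO (SD, n = 3 each), against 10.07 ± 1.50 in wild type (SD, n = 6). The mean of the mutants was 1.78 ± 0.49 (SE) above wild type. Norrin KO alone stood 1.66 above wild type, and 1.14 with Xist and Eif2s3y as covariates, the lowest of 27 refits. The other probe set (1423037_at) put the mutants 2.10 ± 0.57 (SE) above wild type and overlapped more, with 10.23 on Fz4-/- 3, 10.19 on Lrp5-/- 1 and 8.54 on Norrin KO 1, all under 10.30 on wild type 2.

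The spread of Aplnr among wild type pools was itself large. Its SD of 1.50 was exceeded by 22 of 18194 genes (0.121%), whereas the median gene had an SD of 0.27, Esm1 0.74, Apln 0.78, Kcne3 0.43, Ramp3 0.45 and Trp53i11 0.40. Both Aplnr probe sets ranked the wild type arrays alike, with replicate 3 lowest, then 1, 6, 4, 5 and 2. Markers of some other cells also differed between the arrays at its ends. Rod markers had their highest wild type sum of linear signals, 1219, on wild type 3 and their lowest, 733, on wild type 2, and pericyte and smooth muscle markers likewise had 45642 and 38664. The pan-endothelial sums on these arrays, 34506 and 37138, and the macrophage and microglia sums, 20468 and 19553, lay inside the wild type ranges of 32966 to 39296 and 11440 to 23235. Müller glia and astrocyte sums were 35898 on wild type 3 and 35840 on wild type 2. On wild type 5, next below wild type 2 in Aplnr, the rod sum was 814 and the pericyte and smooth muscle sum 45177. What these values contribute to the spread of Aplnr was not tested.

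Kcne3 is a small membrane protein that joins potassium channels such as Kcnq1 and sets how they gate. It was the member that varied most among the mutants. The signal was 11.25, 11.43 and 10.60 in Fz4-/-, 8.36, 9.45 and 9.72 in Lrp5-/- and 9.21, 10.72 and 11.50 in Norrin KO, against 4.28 (lowest), 4.92 (median) and 5.44 (highest) in wild type. All mutant arrays were far above wild type, and within the mutants the Norrin KO signals reached from the range of Lrp5-/- to that of Fz4-/-. Means were 11.09 ± 0.43, 9.18 ± 0.72 and 10.48 ± 1.16 in Fz4-/-, Lrp5-/- and Norrin KO (SD, n = 3 each), against 4.91 ± 0.43 in wild type (SD, n = 6). The differences from wild type were 6.18, 4.27 and 5.57 (SE 0.43 each), and all 6 wild type signals were below the medians of their arrays.

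Ramp3 encodes an accessory protein that pairs with the receptor Calcrl and makes it respond to adrenomedullin. Its signal was 11.70, 11.33 and 11.63 in Fz4-/-, 10.63, 10.58 and 10.79 in Lrp5-/- and 10.57, 11.19 and 11.37 in Norrin KO, against 6.66 (lowest), 7.03 (median) and 7.82 (highest) in wild type. The wild type signals lay above the array medians, so unlike Esm1, Apln and Kcne3 this gene was not at the low end of the scale before it differed. The mean of the mutants was 3.91 ± 0.18 (SE) above wild type.

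Trp53i11, named as a gene that p53 induces, had the tightest wild type group. Its signal was 9.79, 10.23 and 9.71 in Fz4-/-, 9.33, 9.85 and 9.50 in Lrp5-/- and 8.74, 9.01 and 9.50 in Norrin KO, against 6.86 (lowest), 7.24 (median) and 7.82 (highest) in wild type. The groups did not overlap, and the mean of the mutants was 2.19 ± 0.18 (SE) above wild type.

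Counted over genes on their brightest probe set, 5 of 6 members had all 9 mutant arrays above all wild type arrays, the exception being Aplnr, and 4.76% of all genes did so. By mutant the count was 6 of 6 in Fz4-/-, where 13.9% of all genes did so, 6 of 6 in Lrp5-/- (7.78%) and 5 of 6 in Norrin KO (15.8%). The median difference from wild type over the members was 4.72 in Fz4-/-, 3.88 in Lrp5-/- and 4.37 in Norrin KO, beside medians over all genes of -0.028, -0.017 and 0.039. Since these contrasts chose the members, the counts and medians describe them and nothing more. The mutants share the same 6 wild type arrays, so their 3 differences from wild type are not separate measurements.

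The arrays at the edges were often the same for several members. Wild type 2 was the highest wild type array on 6 of 7 probe sets, the exception being Ramp3, which was highest on wild type 3. Norrin KO 1 was the lowest and Norrin KO 3 the highest Norrin KO array on 7 of 7, and over all mutant arrays Norrin KO 1 was lowest on 5 of 7 and Lrp5-/- 1 on the other two. Norrin KO 1 also had the widest gap between the 3′ and 5′ actin control probe sets, a sign of RNA integrity, at 2.92 units, against 1.05 and 1.45 on Norrin KO 2 and 3, 0.56 to 0.96 in Fz4-/- and Lrp5-/- and 0.69 to 1.04 in wild type. Its pan-endothelial sum was 33743, against 36747 and 41763 on the other Norrin KO arrays. What these values contribute to the low member signals there was not tested.

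Whether the members differed according to which component was lost was tested between the mutants. The differences hold no wild type signal, but the spread in the fit was estimated over all 4 groups. As Xist signals differed between Fz4-/- and Norrin KO, that contrast cannot be told apart from a difference in the sex of the pools. How far the sex of the pools enters the other contrasts was not tested. In limma, with adjustment over 18194 genes, 0 of 6 members passed an adjusted p of 0.05 between Fz4-/- and Lrp5-/-, where 0.225% of all genes passed, 0 of 6 between Fz4-/- and Norrin KO (2.32%) and 0 of 6 between Norrin KO and Lrp5-/- (11.9%). At an unadjusted p under 0.05 there were 2, 1 and 1 of 6, where 9.2%, 18.1% and 29.2% of all genes passed in the same order, so 1 of 6 is no more than the share of all genes in the second contrast and below it in the third. These were Kcne3 and Ramp3 in the first contrast, Trp53i11 in the second and Kcne3 in the third.

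Kcne3 was 1.92 higher in Fz4-/- than in Lrp5-/- (95% interval 0.85 to 2.98, adjusted p = 0.226 in limma) and 1.30 higher in Norrin KO than in Lrp5-/- (0.24 to 2.36, adjusted p = 0.1). Without Lrp5-/- 1, Lrp5-/- 3 and wild type 4, which leaves 1 Lrp5-/- array that has to be taken to vary like the other groups, the differences were 1.65 and 1.03. Without Norrin KO 1 the second difference was 1.93 and passed (adjusted p = 0.0258), and with array weights both passed, at 1.62 (adjusted p = 0.0386) and 1.39 (adjusted p = 0.0319). With the actin gap as a covariate the second was 2.33 and passed (adjusted p = 0.0486). With Xist and Eif2s3y as covariates the differences were 1.70 and 1.35, and neither passed (adjusted p = 0.797 and 0.144). Over the alternative settings the adjusted p of the first ran from 0.0386 to 1 and that of the second from 0.0258 to 0.615. Fz4-/- exceeded Norrin KO by 0.61 (interval -0.45 to 1.68, adjusted p = 0.568), and that difference was -0.02 without Norrin KO 1 and -0.52 with the actin gap as a covariate.

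Ramp3 was 0.89 higher in Fz4-/- than in Lrp5-/- (interval 0.29 to 1.48, adjusted p = 0.389 in limma). Trp53i11 was 0.83 higher in Fz4-/- than in Norrin KO (interval 0.24 to 1.41, adjusted p = 0.124). Neither difference passed the adjustment, and with Xist and Eif2s3y as covariates that of Trp53i11 was 0.74. Esm1 differed by -0.01 between Fz4-/- and Lrp5-/- (interval -0.83 to 0.82) and Apln by 0.17 (interval -0.78 to 1.11). With this number of arrays, no difference cannot be told apart from another difference inside these intervals. The intervals are not adjusted over genes, so a larger difference could also fail to pass. For Aplnr the interval was wider, -1.50 to 1.73 around 0.11, because the fit shares 1 estimate of the spread over all 4 groups and wild type was so variable.

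**Figure D2:**
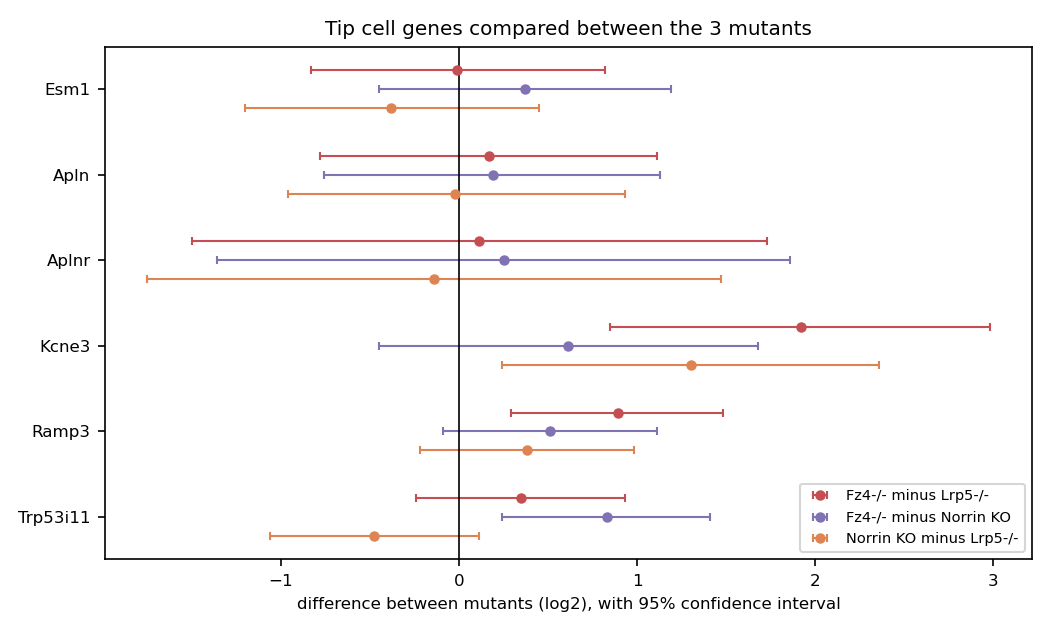
Difference in log2 signal between mutants (horizontal axis) for each member, with bars for the 95% confidence interval. The intervals of Kcne3 lie above 0 for Fz4-/- minus Lrp5-/- and for Norrin KO minus Lrp5-/-, at 1.92 and 1.30, and those of Esm1, Apln and Aplnr all cross 0.

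Other genes of the same pathways were taken from 7 lists, which were written with earlier results of these arrays known. Their counts and p-values are therefore a description, and the shares of all genes beside them are not a test of the lists. Adm, Dll4, Pgf, Nrp2 and Flt4 each stood in more than 1 list. Of 26 other tip cell genes measured, 18 were higher and 3 lower in the mean of the mutants, with a median of 0.72, beside 14.0% of all genes higher, 9.91% lower and a median over all genes of -0.011. By mutant 20 were higher and 1 lower in Fz4-/- (10.7% and 6.08% of all genes), 15 and 2 in Lrp5-/- (5.63% and 7.27%) and 18 and 3 in Norrin KO (16.7% and 9.13%). Over all 7 lists 32 genes were called in Lrp5-/-, and 15 without Lrp5-/- 1, Lrp5-/- 3 and wild type 4, which leaves 1 Lrp5-/- array. Ednrb, the endothelin B receptor, rose furthest, to 12.76 ± 0.09, 12.62 ± 0.15 and 12.47 ± 0.07 in Fz4-/-, Lrp5-/- and Norrin KO (SD, n = 3 each), against 9.07 ± 0.64 in wild type (SD, n = 6), a difference of 3.55 ± 0.21 (SE, limma adjusted p = 1.6e-08). Nid2, a basement membrane nidogen, followed at 2.35 (adjusted p = 5.1e-08). Ankrd37, a gene known for its response to hypoxia, fell by 1.72 (adjusted p = 1.3e-07), against the direction of the members. Pdgfb fell by 0.53 (adjusted p = 0.0102), a call that ended when probe sets were averaged (adjusted p = 0.0715) and without Lrp5-/- 1, Lrp5-/- 3 and wild type 4 (adjusted p = 0.0752). Adm fell by 0.46 (adjusted p = 0.00306), and by 0.92 when probe sets that can match several transcripts were left out.

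Upstream of the tip cell state, 6 of 10 VEGF ligands and receptors were higher and 2 lower in the mean of the mutants. For this list and those that follow, 14.0% of all genes were higher and 9.91% lower in the same contrast. Vegfa was 9.05 ± 0.28, 8.91 ± 0.14 and 8.28 ± 0.43 in Fz4-/-, Lrp5-/- and Norrin KO (SD, n = 3 each), against 7.70 ± 0.26 in wild type (SD, n = 6), a rise of 1.05 ± 0.15 (SE, limma adjusted p = 1.0e-04). Its receptor Kdr rose by 0.80 (adjusted p = 2.5e-04), while Flt1, which binds VEGF-A as a decoy, fell by 0.36 (adjusted p = 0.00682). Pgf, the placental growth factor that binds Flt1, rose by 1.08 and Vegfd, a ligand of lymphatic growth, fell by 0.98.

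Of 12 Notch and stalk cell genes 6 were higher and 1 lower. Dll4, the ligand that tip cells present to their neighbours, rose by 0.79 ± 0.17 (SE, limma adjusted p = 0.00365) and Dll1 by 1.14 (adjusted p = 2.2e-05). Of the Notch targets Heyl rose by 1.06 (adjusted p = 1.6e-04) and Hes1 fell by 0.62 (adjusted p = 0.00237). The venous genes, a setting in which Aplnr is known, counted 5 of 7 higher and 1 lower. Nrp2 and Flt4, among the higher, were also counted with the VEGF genes, and Nr2f2 did not pass, at -0.14 (limma adjusted p = 0.43). The count was 3 higher when any 1 of 7 arrays was left out (Fz4-/- 1 or 3, Lrp5-/- 2, Norrin KO 3, or wild type 2, 3 or 6) and with the sex covariates. Selp, the selectin of inflamed venules, rose by 5.01 (adjusted p = 2.3e-07) and Ackr1, a chemokine scavenger of venules, by 3.03 (adjusted p = 1.1e-06), and Vwf fell by 0.32 (adjusted p = 0.04), a call that ended without any of 11 arrays and under 3 further settings.

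Of 7 genes of the adrenomedullin and CGRP system 0 were higher and 2 lower in the mean of the mutants by limma. Calcrl, the receptor that Ramp3 joins, was 11.93 ± 0.14, 12.07 ± 0.06 and 11.95 ± 0.03 in Fz4-/-, Lrp5-/- and Norrin KO (SD, n = 3 each), against 11.76 ± 0.16 in wild type (SD, n = 6), a difference of 0.22 (limma adjusted p = 0.0894) that passed when dim genes were left out (adjusted p = 0.0477) and with a trended, robust spread (adjusted p = 0.0289). Ramp2, the relative of Ramp3 that pairs with Calcrl in most resting endothelium, fell to 12.00 ± 0.15, 11.94 ± 0.22 and 12.36 ± 0.18 in the same mutants, against 12.75 ± 0.11 in wild type, by 0.65 ± 0.10 (SE, adjusted p = 1.9e-04). The ligand Adm fell by 0.46, and Ramp1, the partner used for CGRP, was at -0.14 (adjusted p = 0.731).

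For Kcne3, 2 of 7 related subunits and partner channels rose and none fell. Kcnq1, the channel with which Kcne3 is best known to assemble, rose by 0.90 ± 0.14 (SE, limma adjusted p = 2.4e-04) and Kcne4, another accessory subunit, by 0.83 (adjusted p = 5.5e-04). Kcne1 was at 0.02 (adjusted p = 0.913) and Kcne2 at 0.49 (adjusted p = 0.136). For Trp53i11, 2 of 11 other p53 targets rose and 2 fell, with a median of -0.13, counts near the 14.0% and 9.91% of all genes that rose and fell. Phlda3, a repressor of Akt, rose by 1.82 (adjusted p = 5.6e-06) and Sesn2, a stress sensor, by 0.77 (adjusted p = 0.00753, or 0.0687 without Lrp5-/- 1, Lrp5-/- 3 and wild type 4), while Perp, a desmosome protein, fell by 1.32 (adjusted p = 1.7e-05) and Trp53inp1 by 0.84 (adjusted p = 9.7e-05). The best known targets did not pass: Cdkn1a, the cell cycle inhibitor, was at -0.12 (adjusted p = 0.464) and Mdm2, the ligase that limits p53, at -0.13 (adjusted p = 0.428).

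**Figure D3:**
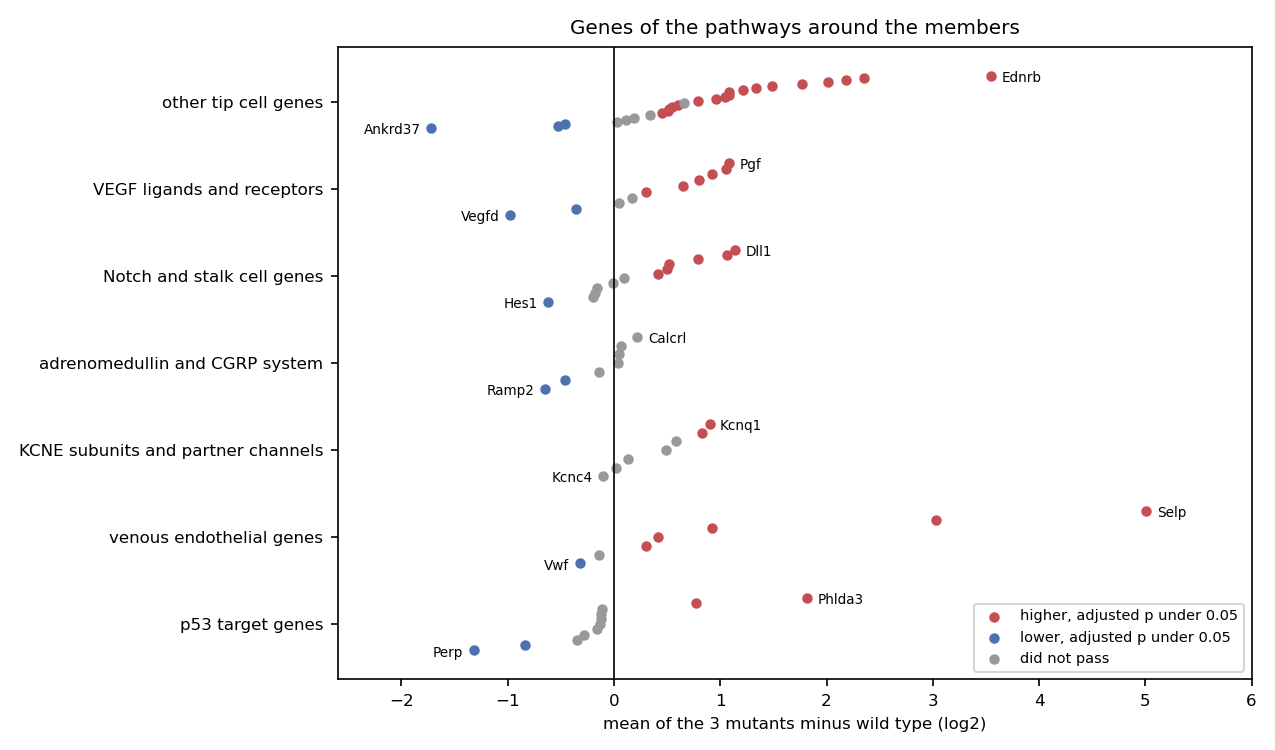
Difference of the mean of the 3 mutants from wild type on the log2 scale (horizontal axis) for each gene of 7 pathway lists, 1 dot per gene, red where higher and blue where lower at an adjusted p under 0.05 and grey otherwise. Other tip cell genes lie mostly to the right, up to Ednrb at 3.55, while the adrenomedullin and CGRP system holds no red dot and ends at Calcrl at 0.22.

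Genes most like the members were sought over the 15 arrays by the root mean square difference of log2 signals, after subtracting from each gene its own mean. The mean profile of the members was followed most closely by Piezo2 (0.363 units), a mechanically gated channel, Kit (0.369), the receptor of stem cell factor, Ces2e (0.448), a carboxylesterase, Fam167b (0.477) and Ct55 (0.531), whereas the median gene was 2.108 units away. Piezo2 averaged 12.04 in the mutants against 7.78 in wild type, and Kit 8.77 against 4.75. Nearest to Esm1 were Aqp1 (0.427), a water channel, and Gpihbp1 (0.531), which holds lipoprotein lipase on capillaries. Nearest to Apln were Exoc3l2 (0.497), an exocyst-like protein, and Piezo2 (0.517). Aplnr was most like Pcdh12 (0.635), a protocadherin of endothelium, and Sox11 (0.642), a transcription factor. Kcne3 was closest to Fam167b (0.712) and Exoc3l2 (0.716), Ramp3 to Upp1 (0.356), a uridine phosphorylase, and Ednrb (0.392), and Trp53i11 to Cd1d1 (0.255) and Myct1 (0.284). Large differences from wild type dominate this measure, and it says which genes moved by similar amounts on these arrays.

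**Figure D4:**
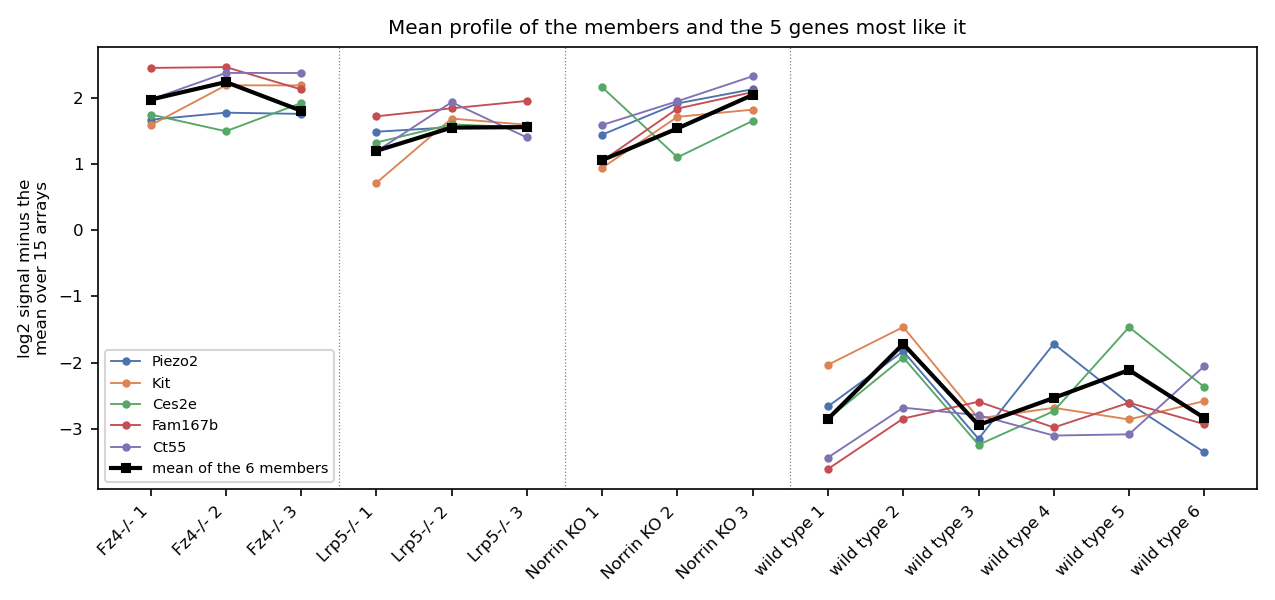
Log2 signal minus the mean over the 15 arrays (vertical axis) on each array for the mean of the 6 members (black squares) and the 5 genes closest to it, with lines joining arrays of 1 group only. The members' mean lies between 1.06 and 2.24 on the mutant arrays and between -2.94 and -1.72 on the wild type arrays, highest there on wild type 2.

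The labels and the purity of the pools bear on all of these values. Fzd4 was 4.22 ± 0.30 in Fz4-/- (SD, n = 3) against 12.09 ± 0.20 in wild type (SD, n = 6), and Lrp5 was 4.91 ± 0.45 in Lrp5-/- against 7.69 ± 0.27, while Ndp, made outside the endothelium, was low in all groups and checks nothing. Pecam1 was at 0.07 over the mutants (limma adjusted p = 0.743), and of 10 pan-endothelial markers 3 were higher and 2 lower, with summed linear signals of 41232 to 43469 in Fz4-/-, 37124 to 40894 in Lrp5-/- and 33743 to 41763 in Norrin KO, against 32966 to 39296 in wild type. Of other cell types, 5 of 12 macrophage and microglia markers were higher in the mean of the mutants and none lower, with summed linear signals of 20398 to 27505 in Fz4-/-, 17597 to 23169 in Lrp5-/- and 18887 to 27395 in Norrin KO, against 11440 to 23235 in wild type. Rod markers, with 1 of 8 higher, summed to 1153 to 2134, 1422 to 2995 and 736 to 1919, against 733 to 1219. Red blood cell markers, with 2 of 4 lower, summed to 364 to 656, 988 to 1172 and 961 to 1430, against 1941 to 2873. Of 10 pericyte and smooth muscle markers 2 were higher and 1 lower, and of 9 Müller glia and astrocyte markers 1 was higher and 2 lower, with sums that overlapped wild type in every mutant for both lists. No array signal of these lists was at 0, and their part in the members' values was not tested.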

How the data were processed

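The authors deposited log2 signals of 45101 probe sets for 15 arrays, and the submitters' processing notes name RMA. RMA subtracts background, equalizes the arrays' distributions and summarizes probes. Neither its version nor joint processing of all arrays is stated in the labels. No detection calls were used, and no filter or further scaling was applied. The brightest probe set with 1 symbol stood for each of 18194 genes. All arrays were fitted with 4 group means in limma 3.58.1 under R 4.3.3 (lmFit, contrasts.fit, eBayes), with p-values adjusted by Benjamini and Hochberg over all genes and a threshold of 0.05. The fit was tested on simulated data. P-values set each difference in group means against the spread between pools, estimated over all 4 groups together. Alternatives comprised 12 settings and leaving out each of the 15 arrays. Some listed genes are not reported here.

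The members and lists were chosen with earlier results of these data known. Named genes were the members, the genes most alike, direct partners, the 2 largest rises and falls of each list, and markers.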

Additional observations from a re-analysis of the deposited data

Results flagged for a closer look

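Among the 6 wild type arrays, Apln on wild type 2, at 5.48, stood apart from the others: its gap to the next array was 0.629 of the whole range of the group, above Dixon's 95% critical value for 6 values. Such a gap arises by chance in about 1 of 20 groups, and 7 probe sets were examined. Without wild type 2 the mean of the mutants exceeded wild type in Apln by 5.24, against 4.95 with it.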

How the results depend on the processing

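Every result was refitted under 12 settings and without each of the 15 arrays. The median difference of the members over wild type was 4.33 to 4.56 when single arrays were left out and 3.91 among genes above the median gene, where Apln dropped out. The number of listed genes called was 32 to 41 in Fz4-/-, 27 to 34 in Lrp5-/-, 38 to 44 in Norrin KO and 41 to 44 in the mean of the mutants without single arrays. It was 15 in Lrp5-/- without Lrp5-/- 1, Lrp5-/- 3 and wild type 4 (the 3 arrays), against 32 with them, and 28 in Norrin KO with Xist and Eif2s3y as covariates, against 43 without. Between Norrin KO and Lrp5-/- 0 to 1 members were called without single arrays, and 1, Kcne3, with array weights and with the actin gap as a covariate (2.33, limma adjusted p = 0.0486). With array weights 1 was called between Fz4-/- and Lrp5-/-, again Kcne3. The cause was not tested. Differences that changed sign passed no threshold: Apln for Fz4-/- minus Lrp5-/- (-0.08 without the 3 arrays, -0.30 with sex covariates, -0.05 to 0.29 without single arrays), for Fz4-/- minus Norrin KO (-0.01 with the actin gap, -0.37 with sex covariates, -0.03 to 0.45) and for Norrin KO minus Lrp5-/- (0.00 with weights, 0.16 with the actin gap, 0.07 with sex covariates, -0.28 to 0.12); Aplnr for Norrin KO minus Lrp5-/- (0.03 with weights, 0.06 with the actin gap, -0.40 to 0.10) and for Fz4-/- minus Lrp5-/- (-0.01 to 0.24); Esm1 for Fz4-/- minus Lrp5-/- (0.01 with weights, 0.08 without the 3 arrays, 0.21 with sex covariates, -0.15 to 0.09); Kcne3 for Fz4-/- minus Norrin KO (-0.52 with the actin gap, -0.02 to 1.13); and, over wild type, Kcne1 (-0.01 with weights or the actin gap, -0.02 with sex covariates, -0.03 to 0.11) and Ramp1 (0.02 with sex covariates, -0.27 to 0.02). With the replicate number as a block the listed genes called were 29 in Fz4-/-, 23 in Lrp5-/-, 36 in Norrin KO and 34 in the mean of the mutants, the median of the members was 4.22, and 0 members were called between mutants. Under the block the calls of Pdgfb (limma adjusted p = 0.0893), Adm (0.0529), Dll4 (0.112), Flt1 (0.133), Sesn2 (0.0676) and Vwf (0.165) were lost, and in the mean of the mutants 2 Notch and stalk cell genes were higher, against 6 without it. Deviations of same-numbered arrays correlated at -0.238 to 0.381, and in 4 of 18 cases the array's own number correlated best. Differently numbered arrays reached 0.661, between Lrp5-/- 1 and a wild type array. The labels give no pairing beyond the number, and whether some same-numbered arrays shared a run was not tested. Signals near the array floor limit the differences of Esm1, Apln and Kcne3.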
